A study of Mus musculus with 4 samples.

Results

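The 9 genes described here, Frs3, Nle1, Grhl3, Amdhd2, Lmf1, Ms4a10, S100a16, Rtl8b and 1700007K13Rik, were chosen on their own values: the summed read count and the summed TPM of each were higher in both irradiated libraries than in both control libraries. They are 9 of the 17374 genes listed. Germinal vesicle stage mouse oocytes from postnatal day 16 were sequenced in 4 libraries, 2 of control oocytes and 2 of oocytes collected 24 h after exposure to 5 Gy of γ-irradiation in culture. Every library was a pool of oocytes freed from the surrounding cumulus cells and cultured with milrinone, which prevents meiotic resumption, from females of the C57/Bl6/DBA2J F1 hybrid background that the study used throughout, and no transgene or mutant allele is given in the sources used here. Because the ordering of the libraries chose the genes, the values of the 9 genes are a description and no test of them is used as support.

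The growing oocyte transcribes its genome actively before it falls silent, and most of its messages are stored for later use. Frs3 is a membrane-anchored adaptor that links activated FGF and neurotrophin receptors to downstream kinases, Nle1 (Notchless) acts in the assembly of the large ribosomal subunit and was named for its action on Notch signalling, and Grhl3 is a Grainyhead transcription factor of surface epithelia. Amdhd2 removes the acetyl group from N-acetylglucosamine 6-phosphate in amino sugar metabolism, and Lmf1 helps lipases to fold in the endoplasmic reticulum. Ms4a10 encodes a membrane-spanning protein of the MS4A family, S100a16 a calcium-binding EF-hand protein and Rtl8b a small protein derived from the Gag region of a retrotransposon. 1700007K13Rik, also called Pierce1, was described as a gene induced by p53 and encodes a protein of ciliary axonemes.

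Sequences are shown for 3 of the genes because they bear on how the counts can be read or on a feature of the upstream region. The coding sequences of Rtl8b and its neighbour Rtl8a are the same at all 342 bases (GENCODE annotation of GRCm38, 100% identity), so that a read lying within them matches both genes. The first 120 coding bases are printed once for the pair, at chrX:53670179-53670298 in Rtl8b and chrX:53643502-53643621 in Rtl8a, both on the minus strand.
Rtl8b and Rtl8a: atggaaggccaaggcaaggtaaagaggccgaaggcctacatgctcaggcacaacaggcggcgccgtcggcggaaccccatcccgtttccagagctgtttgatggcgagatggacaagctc
Of the words of 50 bases in the Rtl8b transcript, 80% (946 of 1183) also occur in Rtl8a or Rtl8c, whereas in the other 8 genes between 0% and 1.4% of the words occur in another gene.

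The bases before the RefSeq transcription start were searched in the 32851 windows of all genes, on both strands, for the E-box CACGTG, the CCAAT box, the GC box GGGCGG, the TATA box TATAAA, the Grainyhead motif AACCGGTT and the p53 decamer, the unit that occurs as a pair in a full p53 binding site. Amdhd2 had 3 E-boxes in 250 bases, and 1700007K13Rik had 1 p53 decamer with 81 bases between it and the start. Both windows are printed in the direction of the gene with these motifs in capitals, Amdhd2 without its last 5 bases at chr17:24163739-24163983 and 1700007K13Rik at chr2:28466325-28466574, each on the minus strand (RefSeq, GRCm38.p6).
Amdhd2: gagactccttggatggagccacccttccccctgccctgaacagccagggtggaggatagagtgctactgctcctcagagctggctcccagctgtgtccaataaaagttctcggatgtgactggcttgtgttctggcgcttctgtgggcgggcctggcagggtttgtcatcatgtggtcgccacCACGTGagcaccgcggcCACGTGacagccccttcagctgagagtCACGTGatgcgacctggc
1700007K13Rik: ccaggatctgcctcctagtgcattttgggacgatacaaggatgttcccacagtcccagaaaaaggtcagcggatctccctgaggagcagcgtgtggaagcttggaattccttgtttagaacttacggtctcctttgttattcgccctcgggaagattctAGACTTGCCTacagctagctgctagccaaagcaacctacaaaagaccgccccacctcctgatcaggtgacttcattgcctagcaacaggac
At least 1 E-box was present in 6.02% of all windows and 3 or more in 0.0609% (20 windows), and the p53 decamer in 7.13%. In GENCODE, Amdhd2 starts further upstream, at chr17:24163766, so the E-box nearest the RefSeq start lies within the gene there. The GC box was found upstream of 6 of the 9 genes and in 32.7% of all windows, and the CCAAT box upstream of 4 of the 9 genes and in 33.8%. The 9 genes had 10 windows, S100a16 having more than 1, and a gene counted if any of its windows held the motif. The TATA box and the Grainyhead motif were found upstream of 0 of the 9 genes, against 12.4% and 0.116% of all windows. No 2 different motifs overlapped in the windows of the 9 genes. Their GC content ranged from 44.4% in Ms4a10 to 74% in Frs3 around a median of 52.4% for all windows. The table of windows does not name the transcript behind each start, and the reads of Frs3, nearly all of those of Ms4a10 and most of those of Grhl3 belonged to predicted transcripts, so that these windows may not lie upstream of the transcript counted.

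The estimated counts summed to between 33349466 and 37232818 per library. Irradiated library 2 stood apart from the other 3 libraries before any comparison: 14150 genes had more than 3 counts in it against 13677 to 13733, and the median count of a listed gene was 123.58 against 90.0 to 92.68. Its oocyte markers departed in both directions: of the zona pellucida genes, Zp2 had 86627 counts against 199276 to 228349 in the others, while Zp1 had 105774 against 47056 to 54871 and Zp3 417844 against 325422 to 337362. The 9 genes are therefore also given as TMM-normalized counts, which are estimated counts scaled to a common effective library size. Counts of other genes are unscaled unless stated, and the ordering is given with and without this library. Markers of the oocyte summed to between 31422.7 and 35611.5 TPM. Granulosa and cumulus markers summed to between 17.2 and 22.6 TPM with 8 of 12 listed, Cyp19a1 at 528 to 543, Nr5a2 at 382 to 702, Fshr at 91 to 148 and Hsd17b1 at 0 to 2 counts, and theca and stroma markers to 0.39 to 0.54 TPM with 4 of 8 listed and Cyp17a1 at 0 to 1 counts. Leukocyte markers summed to 1.64 to 3.53 TPM (3 of 6 listed, Cd68 at 41 to 88 and Tyrobp at 0 to 1 counts), endothelial markers to 4.46 to 6.78 TPM (3 of 4 listed, Pecam1 at 314 to 425 and Kdr at 3 to 11 counts), erythroid markers to 0 to 0.05 TPM (1 of 3 listed) and epithelial markers to 6.18 to 9.55 TPM (5 of 7 listed, Krt18 and Krt5 at 0 to 1 counts). The highest sums of the granulosa, theca, leukocyte, endothelial and epithelial lists all lay in irradiated library 2. These TPM sums were not scaled by TMM, whose factor was 1.19 in that library against 0.923 to 0.975 in the others. Other cell types therefore cannot be read from these sums alone. The part of these markers in the values of the 9 genes was not tested. In a pool of oocytes, fewer cells with a transcript and less of it per cell cannot be told apart.

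Per length of transcript, the 9 genes had mean levels of 0.01 to 2.91 TPM in control oocytes and 0.61 to 11.1 TPM in irradiated oocytes. Over the 4 libraries, 4 of them lay below the median level of all listed genes (1.41 TPM) and 5 above it, from percentile 35.3 for Grhl3 to percentile 70.5 for Ms4a10, so that low expressed holds against the abundant oocyte transcripts rather than against the typical listed gene. The genes lay on 7 chromosomes, with Frs3, Amdhd2 and Lmf1 on chromosome 17.

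Frs3 was nearly absent from control oocytes. Its estimated counts were 0 and 1 in control oocytes, against 32 and 35 after irradiation. The conditions did not overlap, and the irradiated libraries lay close together, at 34.0 and 30.1 normalized counts. The summed counts of 67 against 1, scaled for library size, gave a ratio of 60.5 with an exact 95% interval of 10.5 to 2426 that covers counting error only. These reads all belong to 1 predicted transcript (RefSeq prefix XM_), the only one listed of the 4 annotated for the gene, and no known transcript (prefix NM_) of Frs3 was listed. The gene (chr17:47687607-47704286, plus strand) overlaps Prickle4, which lies on the minus strand and was not listed, and Tomm6, a subunit of the mitochondrial import complex. GENCODE also has Tomm6os on the plus strand and Frs3os and Gm21981 on the minus strand as overlapping genes. Of the 3077 words of 50 bases in Frs3 transcripts, 25 also occur in Tomm6os. The counts of Tomm6 were 2640 and 2526 in control oocytes, against 2341 and 3708 after irradiation. Its conditions overlapped, and the sources used here do not say whether reads were counted by strand.

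The estimated counts of Nle1 were 44 and 31 in control oocytes, against 78 and 141 after irradiation. On the normalized scale these were 45.1, 33.6, 83.0 and 121 counts, so that both irradiated libraries were above both controls but differed by 1.46 times between themselves. The control mean was 39.3 ± 8.13 (SD, n = 2) and the irradiated mean 102 ± 27.2 (SD, n = 2), with a log2 difference of 1.34 ± 0.34 (SE). The counts came from 1 known transcript (gene at chr11:82900768-82908446). Fndc8, which overlaps it on the opposite strand in GENCODE, had 1 to 3 counts in each library.

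Grhl3 had 12 and 8 estimated counts in control, against 31 and 46 after irradiation. The normalized counts were 12.3 and 8.67 against 33 and 39.6, and the 2 libraries of a condition lay closer to each other than to any library of the other condition. The log2 difference was 1.71 ± 0.26 (SE, n = 2 and 2). Of the 2 transcripts listed for the gene (chr4:135541887-135573632), the predicted one held all reads in every library except irradiated library 1, where it held 80.3%. Of the epithelial markers beside it, Krt8 had 132 and 104 counts without irradiation, against 86 and 185 with it. By unscaled count, Cdh1 was higher without overlap (355 and 371 against 393 and 433) and Epcam lower without overlap (28 and 24 against 19 and 15). Cdh1 lost this order after normalization (log2 fold change 0.05). By estimated count, 22.9% of all listed genes were higher without overlap, and the share that was lower is not given. In edgeR's quasi-likelihood test the adjusted p was 0.708 for Epcam and 0.922 for Cdh1.

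Amdhd2 had 82 and 64 estimated counts in control, against 155 and 198 after irradiation. After normalization the irradiated libraries agreed closely, at 165 and 170 counts against 84.0 and 69.4, which gave a log2 difference of 1.12 ± 0.14 (SE, n = 2 and 2). The gene lies at chr17:24155833-24163733 between Pdpk1 and Atp6v0c, which are 213 and 131 bases away. Pdpk1, a kinase of insulin signalling, had 873 and 921 counts in control, against 769 and 1036 after irradiation and overlapped between conditions.

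Lmf1 had 58 and 65 estimated counts in control, against 120 and 162 after irradiation. Its normalized counts were 59.4 and 70.4 against 128 and 139, the smallest log2 difference of the set (1.03 ± 0.14, SE, n = 2 and 2). The conditions did not overlap on either scale. Its known transcript held 66.7% and 37.1% of the reads in control and 42.8% and 43.0% in irradiated oocytes, so the division between its 2 listed transcripts differed more between the controls than between conditions. The gene spans chr17:25579174-25662831.

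By TPM, Ms4a10 was the most abundant of the set in irradiated oocytes (11.1 ± 5.43, SD, n = 2). It had 49.0 and 62 estimated counts in control, against 135 and 261 after irradiation. The normalized counts of 50.2, 67.2, 144 and 225 did not overlap between conditions, with a log2 difference of 1.61 ± 0.38 (SE, n = 2 and 2). Its 4 listed transcripts behaved unequally: the known one was at 6.55 counts in control library 1 but at 0 elsewhere, and predicted transcripts held all other reads. The gene lies at chr19:10962289-10974724 beside Ms4a15, which had 3 and 2 counts in control, against 1 and 14 after irradiation.

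S100a16 had 29 and 45 estimated counts in control, against 105 and 133 after irradiation. The normalized counts were 29.7 and 48.8 against 112 and 115, so that the controls differed from each other by 1.64 times and the irradiated libraries by 1.03 times. The log2 difference was 1.54 ± 0.35 (SE, n = 2 and 2). One of its 4 listed transcripts held between 72.2% and 85.5% of the reads in each library. The gene lies at chr3:90537254-90543151 within a cluster of S100 genes, next to S100a14.

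Rtl8b had 4.86 and 7.99 estimated counts in control, against 34.9 and 77.5 after irradiation. The normalized counts of 4.98 and 8.66 against 37.1 and 66.8 did not overlap, and the log2 difference was 2.74 ± 0.54 (SE, n = 2 and 2). Such fractional counts are how a program writes reads divided between matching sequences. Rtl8a lies 25401 bases away and had 102.14 and 101.01 counts in control, against 101.14 and 345.46 after irradiation. Rtl8a overlapped between conditions, since irradiated library 1 lay at the level of the controls. Added together, the pair had 107 and 109 counts in control, against 136 and 423 after irradiation, whole numbers in every library. Of this sum 4.54% and 7.33% were given to Rtl8b in control and 25.6% and 18.3% in irradiated oocytes. The normalized sum kept the order of the conditions, but its smaller irradiated value was 1.22 times the larger control value, against 4.28 times for Rtl8b alone.

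**Figure D1:**
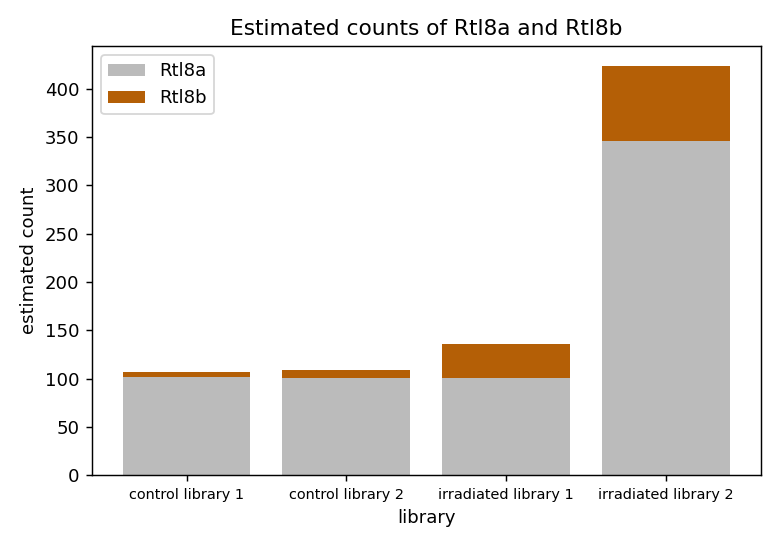
Stacked bars give the estimated count of Rtl8a (grey) and Rtl8b (orange) in each of the 4 libraries, without scaling and without error bars because each bar is 1 library. The sum is 107, 109, 136 and 423, and the Rtl8b part is 4.86, 7.99, 34.86 and 77.54.

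1700007K13Rik had 1 and 6 estimated counts in control, against 23 and 44 after irradiation. On the normalized scale these were 1.02 and 6.50 against 24.5 and 37.9, without overlap. The log2 difference of 3.01 carried the widest error of the set, 0.99 (SE, n = 2 and 2), and the ratio of the summed counts, 67 against 7, was 8.65 with an exact 95% interval of 3.97 to 22.3 for counting error only. The gene (chr2:28462001-28466324) overlaps Mrps2, a mitochondrial ribosomal protein gene, in RefSeq. Mrps2 had 535 and 474 counts in control, against 474 and 750 after irradiation and overlapped between conditions.

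**Figure D2:**
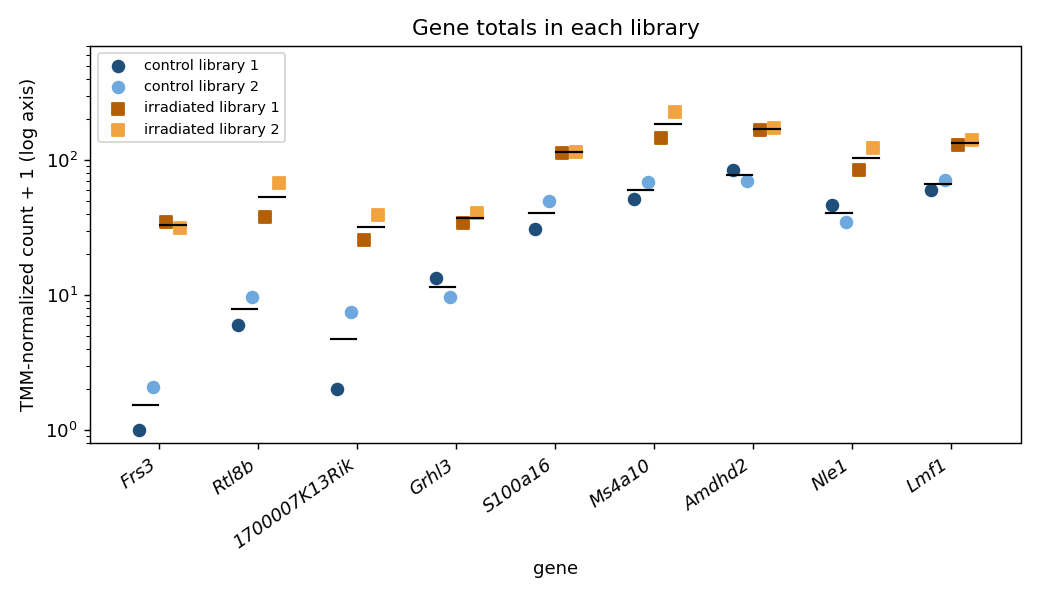
Each point is the TMM-normalized count plus 1 of a gene in 1 library on a log axis, with control libraries as circles, irradiated libraries as squares and horizontal lines at the mean of each condition (n = 2). In all 9 genes both squares lie above both circles, by the widest margin in Frs3 and the narrowest in Lmf1.

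Irradiated library 2 was higher than irradiated library 1 in all 9 by estimated count and in 8 by normalized count, Frs3 being the exception, by 0.886 to 1.80 times. Among the 3540 other genes with a mean count in the same range (17 to 126.748), which are called genes of like level here, irradiated library 2 was the higher of the pair in 60.3%, and in 71.2% of those in the order that chose the 9 genes. Irradiated library 1 by itself was above both controls in all 9 genes, which the choice fixed by count and TPM. By normalized count this held in 38.1% of the other genes of like level. In the 9 genes its normalized count was 1.81 times the larger control in Lmf1 to 10.5 times in Frs3. A Frs3 control was set to the floor of 3 counts where it lay under it. The controls had no common order, since control library 2 was the higher in 6 of the 9.

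The ordering that chose the genes was common. By estimated count, both irradiated libraries were above both controls in 22.9% of all listed genes (3980 of 17374) and in 29.5% of the genes of like level. By TPM the share of genes of like level was 33.7%, and by normalized count it was 24.8%, with 12.1% in the reverse order. Nothing is read from the order of the 9 genes, which the choice fixed. At the limit of the order, Mgat2, a glycosyltransferase gene, lay just inside with a smaller irradiated value 1.0001 times the larger control value, and Tkt, the transketolase gene, just outside at 0.999883 times. The 9 genes lay well inside it, since their ratios ran from 1.81 in Lmf1 through 1.84 in Nle1, 1.96 in Amdhd2, 2.14 in Ms4a10, 2.29 in S100a16, 2.68 in Grhl3, 3.76 in 1700007K13Rik and 4.28 in Rtl8b to 9.27 in Frs3. A ratio of at least 1.81, the lowest of the 9 genes themselves, was found in 0.395% of the other genes of like level (14 of 3540). Because the chosen genes set this limit, the share and the ranks below describe them and are no support.

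**Figure D3:**
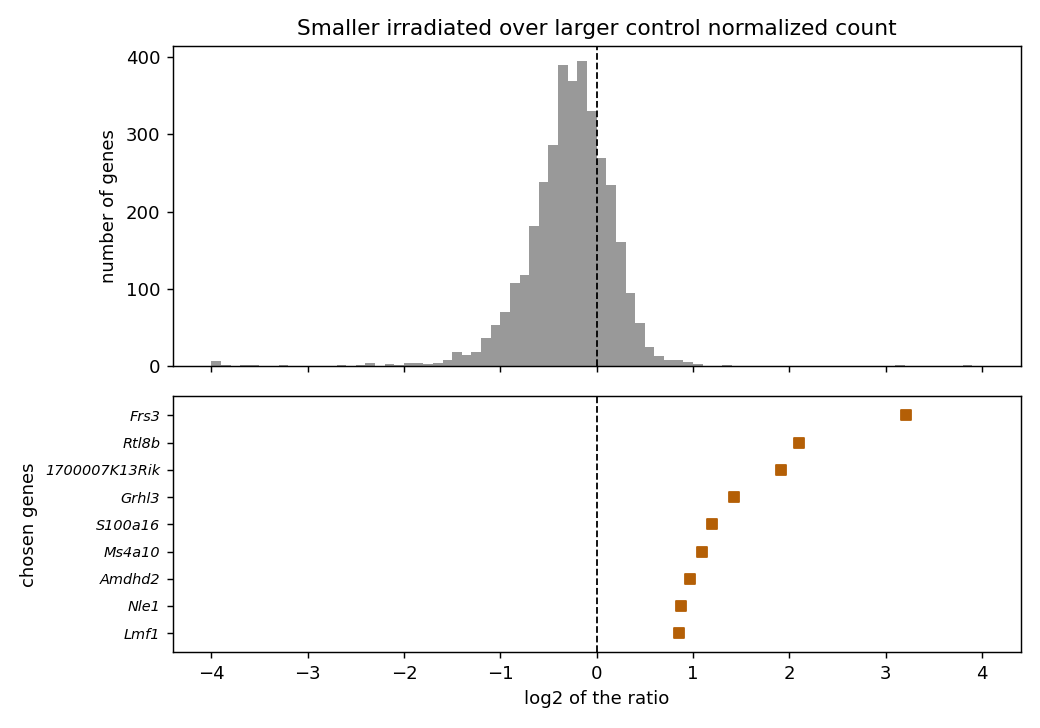
The upper panel counts the 3540 other genes of like level by the log2 ratio of the smaller irradiated to the larger control normalized count, with ratios beyond -4 or 4 drawn at the edge, and the lower panel marks the 9 chosen genes on the same axis. The dashed line at 0 is the limit of the ordering, and the 9 genes lie to its right in the sparse upper tail. They were chosen for being higher, so this position is no test.

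When the 3549 genes of this range were ranked by the same ratio in CPM (counts scaled to the library total), Frs3, Rtl8b, 1700007K13Rik and Grhl3 ranked 3 to 6, S100a16 ranked 8, Ms4a10 13, Amdhd2 18, Nle1 21 and Lmf1 29. The top rank was held by Fermt1, the kindlin-1 adaptor of integrins, with 5 and 8 counts in control, against 137 and 148 after irradiation. It was followed by the histone H4 gene H4bc24, with 1.81 and 0 against 102 and 32.7 counts. Of the genes not chosen, the next were Ndufa4l2 (10 and 19 against 51 and 173 counts), the intermediate filament gene Synm (30 and 26.0 against 62 and 68) and the ciliary gene Nphp4 (18 and 15 against 36 and 40). Irradiated library 2 was the higher in Ndufa4l2 and, by count, in Synm and Nphp4, as in most of the chosen genes, and irradiated library 1 was the higher in H4bc24.

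In edgeR's quasi-likelihood test over the 12569 genes with enough counts, 1 gene, Fermt1, was past the study's limits (adjusted p under 0.05, log2 fold change beyond 2 either way), which is 0.00796% of the genes tested (adjusted p = 0.0428). All 9 chosen genes were tested and 0 were called by edgeR, DESeq2 or limma-voom. Their adjusted p values in edgeR were between 0.652 and 0.708, with unadjusted p under 0.05 in 9 of 9 against 744 of the 12569 genes tested, a count that the choice of the genes favoured.

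Of the 21 nearest annotated genes on each side, with those that overlap, 16 were listed and 10 had enough counts to be tested. By normalized count, both irradiated libraries were above both controls in 5 of the 10, beside 22.1% of all genes tested. Their median log2 fold change was 0.36, beside 0.01 for all genes tested, and 0 had an adjusted p under 0.05 in edgeR. Stpg1 beside Grhl3 had 12 and 10 counts in control, against 18 and 38 after irradiation. The other 4 in order were Sox8 beside Lmf1 (40 and 48 against 49 and 82 counts), S100a14 (61 and 54 against 61 and 115), Ppp1r26 beside 1700007K13Rik (7 and 9 against 13 and 13) and Atp6v0c, a proton pump subunit gene with 11994 and 12233 against 13827 and 19652 counts. Ccdc86 beside Ms4a10 had 902 and 880 counts in control, against 1026 and 954 after irradiation and lost the order after normalization. Gm20517, Gng13, Ifnlr1 and Gbgt1 had 10 counts or fewer in every library.

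Genes of the same families and pathways were read from lists of their own. Over the 153 listed partners that were tested, each counted once, 0 had an adjusted p under 0.05 in edgeR (smallest adjusted p = 0.708). In the same test 8 higher and 2 lower had an unadjusted p under 0.05, beside 744 of all 12569 genes tested in either direction. The directions of the 744 are not given, so no lean is read from the 8 and 2. Their median log2 fold change was 0.03, beside 0.01 for all genes tested, and 21.6% were in the order of the chosen genes, beside 22.1% of all genes tested.

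The list of paralogs held 40 genes, including S100pbp, which is a binding partner rather than a paralog. Of these 40 genes 23 were listed and 10 tested, of which 0 passed the adjusted limit, with a median log2 fold change of 0.05. Frs2, the adaptor most like Frs3, had 73 and 80 counts in control, against 57 and 59 after irradiation (log2 fold change -0.54). Lmf2 had 86 and 93 against 116 and 183 counts (0.58), and was the paralog with an unadjusted p under 0.05. Grhl1 had 452 and 495 against 500 and 642 counts, Grhl2 had 73 and 80 against 96 and 86, and both had log2 fold changes of 0.12. Among the MS4A genes, Ms4a1 had 2272 and 2573 counts in control, against 2173 and 3200 after irradiation (-0.01) and Ms4a6d had 229 and 254 against 174 and 231 (-0.41). Ms4a2, Ms4a3, Ms4a4d, Ms4a5, Ms4a6b and Ms4a18 had at most 7 counts in any library. Among the S100 genes, S100a11 had 59 and 65 against 62 and 71 counts (-0.04) and S100pbp, which encodes a binding partner of S100 proteins, 168 and 137 against 125 and 170 (-0.20). S100a1, S100a10, S100a13, S100b, S100z and Amdhd1 had at most 4 counts in any library.

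Of the 18 tested genes of FGF receptor signalling, the pathway of Frs3, 8 had a positive log2 fold change and the median was -0.00325. The highest counts were those of the adaptor Gab1 (7264 and 5698 counts in control, 6408 and 4982 in irradiated oocytes) and the ligand Fgf8 (2823 and 3153 against 2825 and 4733). The decoy receptor Fgfrl1, with 8 and 10 against 17 and 12 counts, had a log2 fold change of 0.55, and with Frs2 it differed most in size.

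Nle1 acts among the assembly factors of the large ribosomal subunit. Of the 35 tested genes of that list 10 had a positive log2 fold change and the median was -0.13. Rsl1d1 had 37562 and 34674 counts in control, against 35525 and 35699 after irradiation, and Brix1 had 27875 and 24636 against 22857 and 20726. Nop2, an rRNA methyltransferase, had 125 and 103 against 147 and 272 counts (log2 fold change 0.71), and the GTPase Gtpbp4 had 2577 and 2188 against 2182 and 1571 (-0.45). Of the Notch pathway, 9 of 12 tested genes had a positive log2 fold change and the median was 0.15. The receptors Notch1 (9 and 8 against 15 and 25 counts, 1.07) and Notch2 (86 and 75 against 95 and 206 counts, 0.72) differed most, and the ligand Jag1 had 38053 and 39023 against 41497 and 49656 counts.

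Of the 19 tested genes on the Grainyhead and epithelial list, 13 had a positive log2 fold change and the median was 0.12. The splicing regulator Esrp2 had 10 and 7 counts in control, against 22 and 23 after irradiation (log2 fold change 1.25). The claudin Cldn4 had 189 and 298 against 255 and 1422 counts, so that its log2 fold change of 1.54 rested on irradiated library 2 and the conditions overlapped. Esrp1, at 2725 and 2744 against 2711 and 3136 counts, and Ubp1, at 902 and 824 against 811 and 874, had the highest counts.

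Of the 16 tested genes of amino sugar metabolism around Amdhd2, 9 had a positive log2 fold change and the median was 0.04. Gnpda2, which deaminates glucosamine 6-phosphate, had 10638 and 10071 counts in control, against 10122 and 8009 after irradiation, and Gnpnat1, which forms the substrate of Amdhd2, 2457 and 2341 against 2342 and 3158. Uap1l1 (23 and 23 against 35 and 42 counts, 0.59) and the transferase Ogt (1860 and 1715 against 1801 and 1229 counts, -0.34) differed most. Of the 8 tested genes of the lipase list around Lmf1, 5 had a positive log2 fold change and the median was 0.14. Gpihbp1, which anchors lipoprotein lipase at the vessel wall, had 7 and 5 against 11 and 18 counts (1.10), while the lipase Lpl itself had 951 and 862 against 853 and 1082 and Lrpap1 1255 and 1049 against 1162 and 1557.

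Of the 28 tested p53 targets set beside 1700007K13Rik, 17 had a positive log2 fold change and the median was 0.06. The p53 homologue Trp73 had 46 and 51 counts in control, against 79 and 161 after irradiation (1.13), and the cyclin gene Ccng1 had 61 and 63 against 86 and 184 (0.94). Mdm2, the ubiquitin ligase of p53, had 8442 and 7401 against 10042 and 11626 counts, and Rrm2b, a ribonucleotide reductase subunit, 4125 and 3949 against 3172 and 3198, in the opposite order. Of the 11 tested genes of the axoneme lumen, 8 had a positive log2 fold change and the median was 0.11. Efhc2 had 1107 and 1055 against 931 and 908 counts (-0.36), Tekt2 36 and 28 against 34 and 63 (0.44) and Cfap20 941 and 892 against 862 and 1209.

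**Figure D4:**
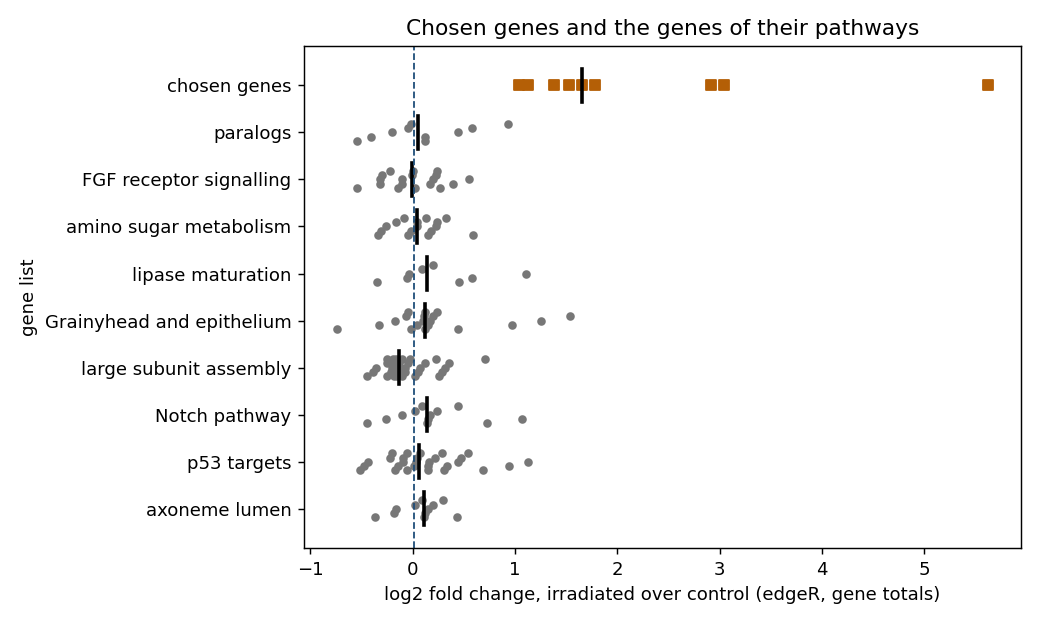
Each point is the log2 fold change of a gene total, irradiated over control, as fitted by edgeR, in rows for the 9 chosen genes (orange) and for the lists of paralogs and pathway partners (grey), with a black bar at the median of each row and a dashed line at the median of all genes tested (0.01). The list medians lie between -0.13 and 0.15, and the chosen genes were picked for being higher, so their position to the right is no test; the fitted value of Frs3 depends on counts of 0 and 1 in control.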

How the data were processed

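RNA-seq was analysed in 4 libraries, grouped by the condition in the sample labels. The study describes 2 independent experimental replicates. The authors deposited an estimated count and a TPM value for each RefSeq transcript. Quality-trimmed paired reads had been aligned to GRCm38 with Bowtie2, and the submitters' processing notes also name HISAT2 and RSEM without their roles. TPM, as deposited, corrects for transcript length and library total. Counts already shared among transcripts were summed per gene, which removes the division within a gene but not that between genes with the same sequence. Deposited FPKM values and averages were not used.

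The 9 genes and all lists were chosen with earlier results of these data known. Gene totals were rounded and compared by the quasi-likelihood test of edgeR 4.0.16 (R 4.3.3), after filterByExpr (minimum count 10) and TMM scaling, without a block. P values were adjusted over all genes by Benjamini-Hochberg. Calls were made at the study's limits, adjusted p under 0.05 with a log2 fold change beyond 2 either way. Log2 differences of the 9 genes are between means of log2 of the normalized count plus 1. Counts of 3 or fewer were the floor, and a control under it was set to it in the ratio of the smaller irradiated to the larger control value. Ratios of summed counts used no floor, and their exact intervals (Clopper-Pearson) cover counting error only. Symbols came from RefSeq GRCm38.p6, for 17323 of 17374 gene IDs.

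The text names the 9 genes, their listed paralogs and nearest annotated genes, from each partner list the genes with an adjusted p under 0.05 or else the 2 of largest mean count and the 2 of largest log2 fold change in size, and the 5 other genes of like level with the largest ratio. A gene that this rule names is not reported here. Marker genes, Mgat2 and Tkt were named outside this rule, after their values were seen. Alternatives were DESeq2 1.42.0 and its size factors, library size alone, limma-voom (limma 3.58.1), no filter, a replicate block, NM_ transcripts only, other pseudocounts, TPM and leaving out each library. On simulated data with 200 of 12569 genes changed by 3 log2 units in this comparison, edgeR recovered 96.5% with 0 false calls. The simulation drew on the fitted dispersion trend and held no library that stood apart as irradiated library 2 did. It therefore does not give the share recovered in these data. Figures were drawn with matplotlib 3.10.9.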

Additional observations from a re-analysis of the deposited data

How the results depend on the processing

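The 9 genes kept both irradiated libraries above both controls under every scaling tried, which their choice by count and TPM largely fixed. With known (NM_) transcripts alone 6 of 9 kept this order. Frs3 had no such transcript listed. Ms4a10 had a log2 difference of -1.47, resting on 6.55 counts in 1 control library. Grhl3 (1.45) had such reads only in irradiated library 1, 6.11 counts. Lmf1 kept the order at 0.81. Of the other genes of like level, 24.8% were in this order by normalized count and 33.7% by TPM. Their share with NM_ transcripts alone is not given. Of 108 values of the 9 genes under alternatives, 94 moved by less than 1 SD, 13 by more and 1 was below 0. The 94 include values that could not have reached this limit. The replicate block left the log2 difference of all 9 genes unchanged. Leaving out 1 library cannot move a log2 difference past the limit with so few libraries per condition. The 94 are therefore no measure of stability. Frs3 ran from 2.75 with a pseudocount of 5 to 5.19 with 0.5. On log2 of TPM plus 1, which compresses low levels, the differences were 0.83 for Frs3, 0.48 for Grhl3, 1.30 for Rtl8b, 0.98 for Nle1 and 1.36 for 1700007K13Rik. Scaling by library size alone shifted the median log2 fold change of all genes by 0.16 upwards.

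Over all genes, the 1 call became 4 with DESeq2, 3 without a filter, 0 with library size alone, 0 with limma-voom and 0 with NM_ transcripts alone (586, 629 and 472 genes at an unadjusted p under 0.05). With the replicate block 7 genes were called. Same-numbered libraries deviated together with a correlation of 0.0976 across 12569 genes, and with 2 pairs they share only a number. Leaving out 1 library gave 16 to 84 calls, the 84 without irradiated library 1, where the lone irradiated library 2 was assumed to vary like the controls; 0 to 57 partners then had an adjusted p under 0.05, the 57 again without irradiated library 1. In genes of like level, the share in order was 24.8% with no library left out. It was 39.3% without control library 1, 40.2% without control library 2, 38.1% without irradiated library 2 and 51.1% without irradiated library 1. An order is easier to meet with a library fewer. The cause of the higher share without irradiated library 1 was not tested. At 0 to 8 control counts for Frs3, Rtl8b and 1700007K13Rik, counting error limits the size of the difference.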
